A study of Mus musculus with 42 samples.

Results

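β-catenin occupancy was compared between CdxKO and T/BraKO cells, the mutants that lack either CDX transcription factors or T/BRA. The comparison rested on 6 of the 42 samples of the series, 3 libraries of each mutant, chosen by genotype and antibody alone, and 3 WT β-catenin libraries were read beside them. All cells were HM1 mouse embryonic stem cells of 129 background, differentiated for 72 h in N2B27 with 10 ng/ml bFGF and 5 µM LGK974, an inhibitor of WNT secretion. CHIR99021 (CHIR), which switches on WNT signalling by inhibiting GSK3, was added for the last day in every library used, which makes these caudal epiblast-like cells, labelled more broadly as epiblast-like. CdxKO cells carried the genotype Cdx1/2/4-/- and T/BraKO cells T/Bra-/-, and both mutants kept the genes deleted in the other. Genotype and line could not be told apart, and the sources used here did not state whether each mutant was 1 clone. The labels call the replicates biological, and per the methods they came from separate experiments. Peak lists hold binding and not expression, so cell identity could not be checked against markers.

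WNT signalling stabilizes β-catenin, which enters the nucleus and occupies DNA through partners of the TCF/LEF family. In the caudal epiblast it induces Cdx genes, homeobox factors that activate posterior Hox genes and the trunk neural programme, and T/Bra, the T-box factor of the primitive streak that drives mesoderm formation. CDX and T/BRA also bind DNA near β-catenin, so each mutant lacks a different set of factors at which β-catenin might be found.

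For the comparison, the 20000 best peaks of each list by q-value were kept and peaks of the 9 β-catenin libraries that overlapped were merged into 96109 regions. Regions called in 3 of 3 CdxKO and 0 of 3 T/BraKO libraries are named CdxKO-only, and those with the opposite calls T/BraKO-only. Positions refer to mm10, and distances to the nearest start site of a protein-coding gene are negative upstream. The 5 stretches that follow show CDX motifs in sites occupied more in T/BraKO, with the match in capitals, in either orientation. Those at Meis3 (chr7:16174206-16174292), Hoxb8 (chr11:96283647-96283733), Hoxc4 (chr15:103024241-103024327) and Cdx2 (chr5:147309402-147309488) lie in T/BraKO-only regions, and that at Hoxb4 (chr11:96319351-96319437) in a region called in all 6 libraries.
Meis3: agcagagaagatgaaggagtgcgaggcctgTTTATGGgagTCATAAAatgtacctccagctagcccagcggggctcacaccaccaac
Hoxb8: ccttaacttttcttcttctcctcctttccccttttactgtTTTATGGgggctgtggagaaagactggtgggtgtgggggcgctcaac
Hoxc4: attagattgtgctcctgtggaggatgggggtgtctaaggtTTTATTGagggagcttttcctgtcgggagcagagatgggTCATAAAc
Cdx2: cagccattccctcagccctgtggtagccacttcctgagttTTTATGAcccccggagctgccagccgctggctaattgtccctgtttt
Hoxb4: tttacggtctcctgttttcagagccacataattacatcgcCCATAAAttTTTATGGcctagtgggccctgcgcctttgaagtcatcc

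The stretch at Mesp2 (chr7:79810847-79810876) is shown because it holds the T-box motif, in capitals, in a CdxKO-only region that overlaps the untranslated region of a mesoderm gene.
Mesp2: aggggaccaccTCACACCTttagtccagat

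The remaining 4 stretches show 12-base words that recurred among CdxKO-only regions, again in capitals. The word CCCCTGGTGCTA lies near Tmem176b (chr6:48822824-48822883) and, in reverse, near 1700064H15Rik (chr3:19623121-19623180), and ACCTGCCTGAGG lies near Cypt12 (chr3:17893467-17893526) and Cypt15 (chrX:39512820-39512879).
Tmem176b: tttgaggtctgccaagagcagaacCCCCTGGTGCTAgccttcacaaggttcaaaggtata
1700064H15Rik: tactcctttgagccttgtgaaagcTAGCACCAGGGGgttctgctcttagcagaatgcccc
Cypt12: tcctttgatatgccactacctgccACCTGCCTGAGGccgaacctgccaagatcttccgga
Cypt15: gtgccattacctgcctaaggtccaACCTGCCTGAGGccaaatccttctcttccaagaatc

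The CdxKO lists held 85949, 40630 and 140907 peaks and the T/BraKO lists 132907, 61413 and 37687. These lengths overlapped, and the mean log10 number of peaks differed by 0.068 (CdxKO minus T/BraKO; two-sided exact permutation p = 0.7). The read total implied by the peaks' enrichment and p-values was 19.3 to 23.9 M per mutant library. At rank 20000 the summit held 12 to 15 reads in these libraries. The WT lists varied more, with 40067, 108507 and 469083 peaks and implied totals of 23.2, 20.3 and 15.3 M. Their −log10 q at rank 20000 was 4.29, 5.64 and 11.1, so WT calls rest on unlike cut-offs and WT reads on unlike depths. With 3 libraries against 3, an exact permutation test cannot give a p below 0.1, which all tests of a single value below share.

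β-catenin occupied different sites in the mutants, but most sites called in 3 libraries of one mutant were also called in the other. All 6 libraries called 3755 regions. CdxKO-only regions numbered 605 (0.629% of all regions) and T/BraKO-only regions 903 (0.940%). The full lists gave 731 and 1278. Among the 5000 best peaks the balance turned, with 500 CdxKO-only and 354 T/BraKO-only regions. The Jaccard index, the number of regions that a pair of lists shared over the number in at least 1 of them, averaged 0.217 between CdxKO lists (range 0.201 to 0.236), 0.298 between T/BraKO lists (0.271 to 0.322) and 0.217 between a list of each (0.175 to 0.246). Lists of the same mutant thus shared 0.0405 more than lists of different mutants (one-sided exact permutation p = 0.1), and the CdxKO lists were no more alike than lists of different mutants. The excess fell to 0.0060 in the full lists (exact permutation p = 0.2), and to 0.0179, 0.0213 and 0.0223 without T/BraKO replicate 1, 2 or 3 (exact permutation p = 0.2, 0.3 and 0.2).

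Absence from the 20000 best peaks was not always absence from the full list. Of the 605 CdxKO-only regions, 376 had no peak in any full T/BraKO list, 157 had a peak in 1, 64 in 2 and 8 in all 3. Of the 903 T/BraKO-only regions, 417 had no peak in any full CdxKO list, 307 had a peak in 1, 141 in 2 and 38 in all 3. WT cells shared more of the CdxKO-only set. All 3 WT libraries called 269 of the 605 regions, and 65 were called in no WT library. For T/BraKO-only regions these numbers were 196 and 199.

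The CDX motif, a motif of factors missing from CdxKO cells, differed most between the 2 sets in percentage points among the 4 motifs searched. Both strands were searched, up to 100 bp either side of the summit, for CAATAAA or CCATAAA or TAATAAA or TCATAAA. A match was found in 351 of the 903 T/BraKO-only regions (38.9%, 95% Wilson interval 35.7 to 42.1%) and in 42 of the 605 CdxKO-only regions (6.94%, 5.18 to 9.25%). Regions called in all 6 libraries held it in 7.86% of cases and regions called in any of the 6 in 12.9%. The share was 52.3% among T/BraKO-only regions in no full CdxKO list. It was 58.2% among those called in all 3 WT libraries and 19.6% among those called in none. Intervals cover counting error only and treat regions of 1 genome as independent.

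The factor missing from T/BraKO cells binds T-box motifs, and the motif AGGTGTGA went the other way. It was rarer, at 27 of 605 CdxKO-only regions (4.46%, 3.08 to 6.42%), 5 of 903 T/BraKO-only regions (0.554%, 0.237 to 1.29%) and 1.44% of those called in all 6. The SOX motif (CCATTGT or CCTTTGT) was found at similar shares, 15.4% and 14.7%, with overlapping intervals. The TCF/LEF motif (CTTTGAA or CTTTGAT) was found in 43.3% and 34.3%, against 53.5% of regions called in all 6 and 22.2% of those called in any of the 6.

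The CDX motif was most frequent at the best-ranked T/BraKO-only regions. Ranked by their mean place in the 3 lists, the first 50 held it in 76.0% of cases, places 51 to 150 in 59.0%, places 151 to 400 in 40.4% and the rest in 30.4%. CdxKO-only regions held it in 6.0%, 6.0%, 8.80% and 5.37% in the same ranges, without such an order. The first 5 T/BraKO-only regions lay nearest to Rbfox3, Meis3, Sp4, Ttc30a1 and Tcp11, and all of them held a CDX motif and were called in all 3 WT libraries.

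**Figure D1:**
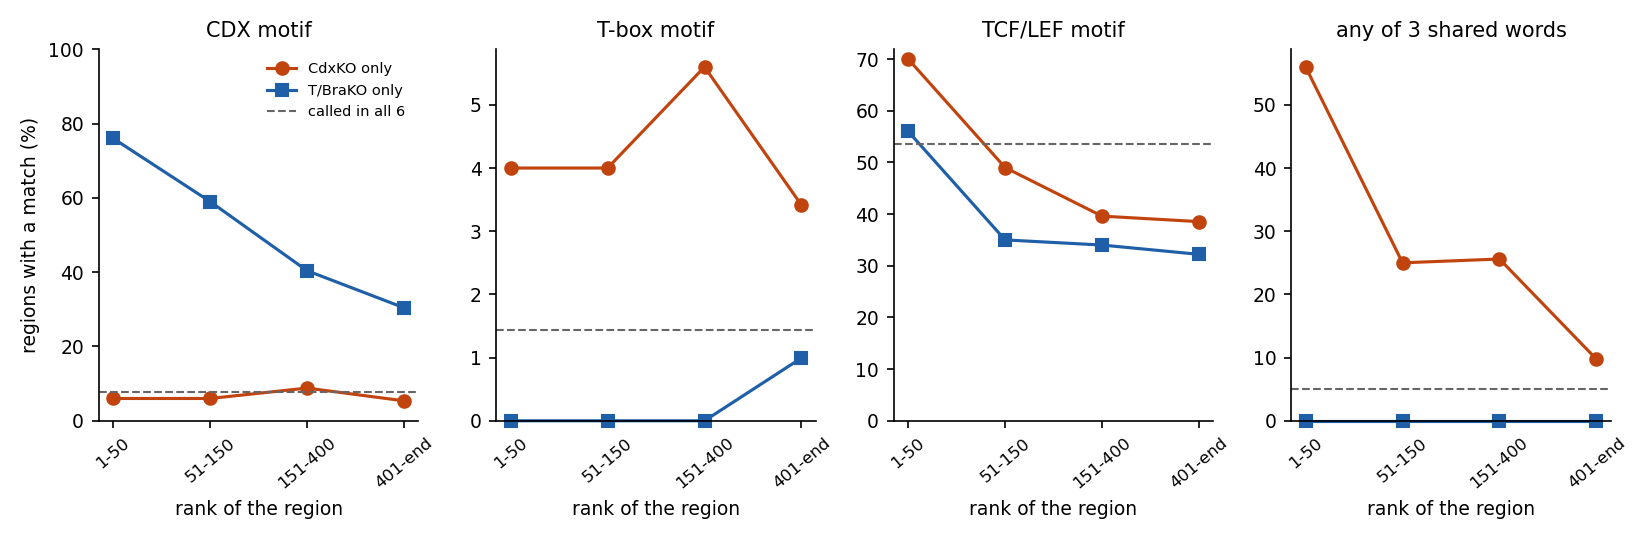
Percentage of CdxKO-only (circles) and T/BraKO-only (squares) regions with a CDX motif, a T-box motif, a TCF/LEF motif or any of 3 shared 12-base words within 100 bp of the summit, by the region's rank within its set; the dashed line gives the share of regions called in all 6 libraries and each panel has its own vertical scale. The CDX share of T/BraKO-only regions falls from 76.0% to 30.4%, and the words are absent from that set.

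Over whole lists the differences were smaller. A CDX motif lay at 9.22, 9.45 and 10.1% of the 20000 best CdxKO summits and at 14.0, 12.8 and 15.9% of T/BraKO summits. The groups did not overlap, with means of 9.59 ± 0.451% and 14.2 ± 1.60% (SD, n = 3; two-sided exact permutation p = 0.1, Benjamini-Hochberg adjusted p = 0.2 over 4 motifs). Windows moved by 1000 bp held it in 16.7% and 16.3%, so neither group was above this background. The T-box motif was found at 1.76 ± 0.219% of CdxKO and 1.16 ± 0.214% of T/BraKO summits (exact permutation p = 0.1, adjusted p = 0.2), against 0.915% and 0.857% in moved windows. SOX and TCF/LEF motifs had an exact permutation p of 0.3 and 0.4.

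Posterior neural genes were then examined at the sites of either set. Of 30 such genes, 11 were nearest to a T/BraKO-only region and 0 to a CdxKO-only region. Among all 21911 protein-coding genes, 3.70% were nearest to a T/BraKO-only and 2.64% to a CdxKO-only region. In the full lists the numbers were 15 and 3 of 30, against 5.13% and 3.14% of all genes. Of the 30 genes, 18 (60%) were also nearest to a region called in all 6 libraries, against 12.2% of all genes. An excess over all genes was thus not limited to T/BraKO-only regions. Among the 11 genes were Sox2, Pax7, Msx1, Nkx6-1, Irx5, Meis2, Meis3, Rarb, Greb1 and Ncam1. Of the 11 regions, 4 held a CDX motif, 6 were called in all 3 WT libraries and 6 lay within 50000 bp of the start site. These genes were chosen with earlier results of these data known, so the counts describe the sites and carry no test.

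The site with the highest reads was at Meis3, which encodes a homeodomain cofactor of HOX proteins. It lay at −1023 bp (chr7:16173993-16175029), with 168, 114 and 160 reads at the summit in the T/BraKO libraries and 210, 89 and 145 in WT. In CdxKO, replicate 2 had a peak of 12 reads there and replicates 1 and 3 had none. The lowest T/BraKO value was thus well above the only CdxKO peak. A site at −93570 bp of Msx1 (chr5:37917690-37918956), a homeobox gene of the dorsal neural tube, had 65, 38 and 108 reads in T/BraKO and no peak in any CdxKO list. Nkx6-1, which specifies ventral neural progenitors, had a site 126849 bp from its start site, with 37, 23 and 49 reads in T/BraKO and 1 CdxKO peak of 14 reads. Both sites were also called in WT, at 28 to 41 reads for Msx1 and 20 to 40 for Nkx6-1. The site at 2948 bp from Sox2, a regulator of neural identity, had 24, 23 and 30 reads in T/BraKO and no CdxKO peak. In an intron of Ncam1, a neural adhesion gene, the T/BraKO reads were 26, 23 and 48, again with no CdxKO peak. The weakest of the 11 sites was near Meis2, another HOX cofactor gene, with 16, 17 and 13 reads, close to those at rank 20000.

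Hox genes showed the same direction in these calls. Of 39 Hox genes, 7 were nearest to a T/BraKO-only region and 0 to a CdxKO-only region, against 3.70% and 2.64% of all genes. The full lists gave 9 and 0, against 5.13% and 3.14%. A region called in all 6 libraries was nearest to 12 of the 39 (30.8%), against 12.2% of all genes. The 8 regions were nearest to Hoxa5, Hoxb8 (2 regions), Hoxb9, Hoxc4, Hoxc8, Hoxd3 and Hoxd4, and 7 of them held a CDX motif. The Hoxa5 region lay 4916 bp from that start site, in an intron of Hoxa3. The Hoxc8 region lay 8759 bp from its start site, in an intron of Hoxc5 and Hoxc6. The region in the intron of Hoxb8 (chr11:96283252-96284266) had 76, 43 and 68 reads in T/BraKO and 1 CdxKO peak of 17 reads. In an intron of Hoxc4 (chr15:103024044-103024762) the T/BraKO reads were 32, 26 and 61 with no CdxKO peak. In the region nearest to Hoxa5 they were 45, 27 and 70 with 1 CdxKO peak of 11 reads. WT reads were 30 to 51, 20 to 33 and 39 to 63 at these sites, within or near the range of T/BraKO. At Hoxb9, −592 bp from the start site, all 3 CdxKO lists held a weak peak of 12, 12 and 15 reads, against 29, 30 and 43 in T/BraKO.

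Counted over the 4 Hox clusters, each extended by 10000 bp, the CdxKO lists had 36, 44 and 55 peaks among their 20000 best and the T/BraKO lists 87, 71 and 94. Every T/BraKO library was above every CdxKO library, at 84 ± 11.8 against 45 ± 9.54 (SD, n = 3). The Hoxb cluster held 37, 30 and 38 peaks in T/BraKO and 21, 17 and 25 in CdxKO. The smaller Hoxd cluster held 16, 11 and 17 against 3, 8 and 12, where the lowest T/BraKO value lay below the highest of CdxKO. In the full lists the totals overlapped, at 259, 145 and 156 in T/BraKO and 127, 85 and 159 in CdxKO. The clusters held 16 regions called in all 6 libraries.

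**Figure D2:**
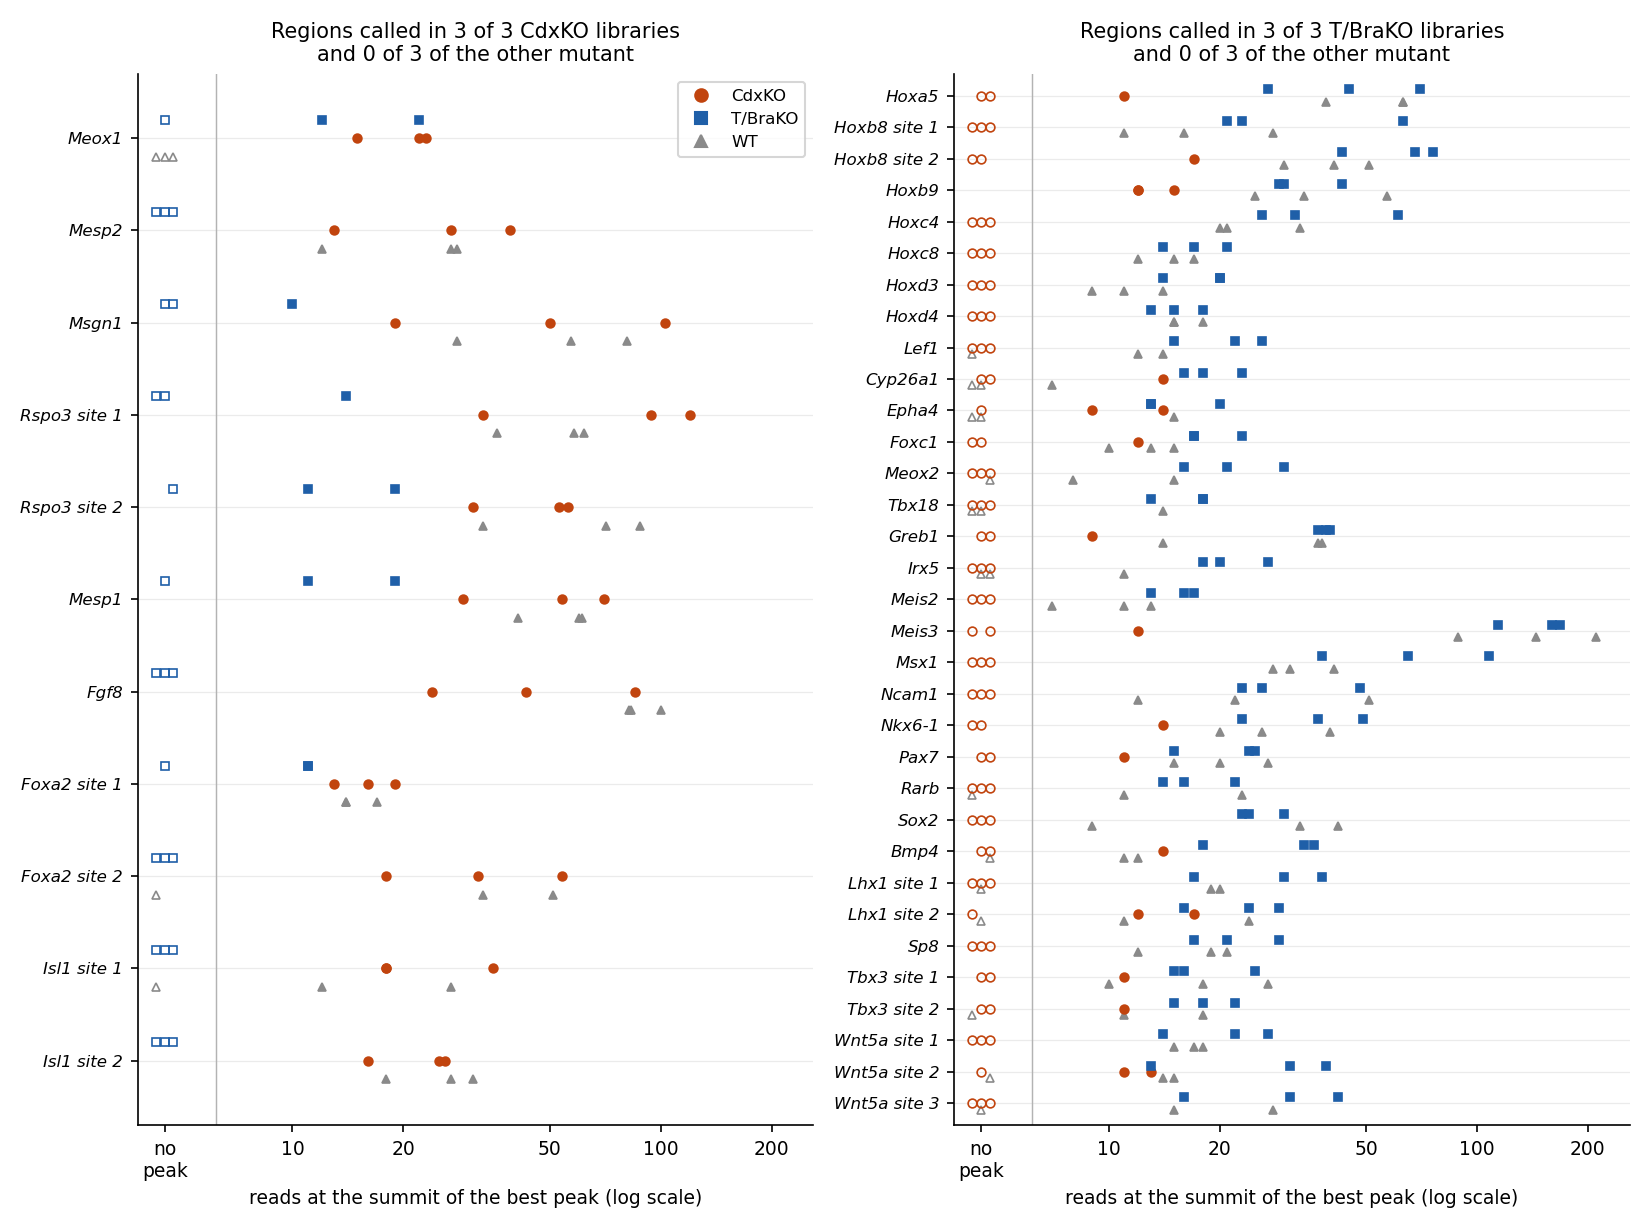
Reads at the summit of the best peak (log scale, unscaled for depth) in each CdxKO (circles), T/BraKO (squares) and WT (triangles) library, for the regions nearest to genes of the posterior neural, Hox, paraxial mesoderm and primitive streak lists, 1 left out; open symbols mark libraries without a peak in the full list. CdxKO-only regions are on the left and T/BraKO-only regions on the right. Meis3 has the most reads, 114 to 168 in T/BraKO. Many sites of the right panel have no CdxKO peak, but others have a weak one in at least 1 library.

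Mesodermal genes did not fall on one side. Of 30 paraxial mesoderm genes, 5 were nearest to a CdxKO-only region (Msgn1, Mesp1, Mesp2, Meox1 and Rspo3) and 6 to a T/BraKO-only region (Meox2, Foxc1, Tbx18, Epha4, Lef1 and Cyp26a1). The full lists gave 1 and 5. Of all genes, 2.64% were nearest to a CdxKO-only and 3.70% to a T/BraKO-only region, and 3.14% and 5.13% in the full lists. A region called in all 6 libraries was nearest to 15 of the 30 (50%), against 12.2% of all genes. The sites differed in rank and in WT calls. The 6 CdxKO-only regions had mean ranks of 1659 to 7693, and 5 were called in all 3 WT libraries. The 6 T/BraKO-only regions ranked from 9411 to 16108, none was called in all 3 WT libraries, and 4 held a CDX motif.

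The CdxKO-only regions included sites of presomitic mesoderm genes. A site at −23578 bp of Msgn1 (chr12:11232255-11232782), which encodes a basic helix-loop-helix factor of the presomitic mesoderm, had 50, 19 and 103 reads in CdxKO and 1 T/BraKO peak of 10 reads. The region at Mesp2 (chr7:79810610-79811072), a gene of somite segmentation, had 27, 13 and 39 reads in CdxKO and no T/BraKO peak, and was the only one of the 6 with a T-box motif. At its neighbour Mesp1, a gene of early mesoderm, CdxKO reads were 54, 29 and 70 against T/BraKO peaks of 11 and 19 reads in 2 libraries. Rspo3, which encodes a secreted enhancer of WNT signalling, had 2 such regions. The nearer, at −18683 bp, had 94, 33 and 120 reads in CdxKO and 1 T/BraKO peak of 14 reads. The farther, at −331061 bp, had 53, 31 and 56 reads, with T/BraKO peaks of 19 and 11. In these 5 regions CdxKO replicate 2 was the lowest CdxKO library, and each CdxKO value was above any T/BraKO peak. Meox1, a homeobox gene of the somite, was the exception. Its CdxKO reads of 23, 15 and 22 overlapped T/BraKO peaks of 12 and 22, and no WT list held a peak there.

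Primitive streak and mesendoderm genes were likewise split. Of 30 genes, 4 were nearest to a CdxKO-only region (Foxa2, Fgf8, Mesp1 and Isl1) and 5 to a T/BraKO-only region (Lhx1, Wnt5a, Tbx3, Sp8 and Bmp4). The shares of all genes were 2.64% and 3.70%. The full lists gave 4 and 6, against 3.14% and 5.13% of all genes. A region called in all 6 libraries was nearest to 20 of the 30 (66.7%), against 12.2% of all genes. A site 19658 bp from Fgf8, a growth factor gene of the streak, had 43, 24 and 85 reads in CdxKO, 83, 100 and 82 in WT and no T/BraKO peak. Foxa2, a gene of endoderm and axial mesoderm, had a site with 32, 18 and 54 reads in CdxKO and no T/BraKO peak. Its other site was weaker, with CdxKO reads of 13 to 19 and T/BraKO peaks of 11 reads. Isl1, a LIM-homeobox gene, was the nearest gene of 2 distant sites, at −164803 and −218562 bp. They had CdxKO reads of 16 to 35 and no T/BraKO peak. The 9 T/BraKO-only regions were weaker in rank (5896 to 11313), and none was called in all 3 WT libraries, while 6 of them held a CDX motif. Wnt5a, a ligand of axis elongation, had 3 of them, with T/BraKO reads of 27, 14 and 22, of 39, 13 and 31, and of 42, 16 and 31. At the second of these sites the CdxKO lists held peaks of 13 and 11 reads, so the groups touched there.

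T/BraKO-only sites above the share of all genes were not limited to the lists above. Of 20 WNT feedback genes, 4 were nearest to a T/BraKO-only region (Nkd1, Znrf3, Lef1 and Cdx2) and 1 to a CdxKO-only region (Apcdd1). The numbers were 1 and 2 of 20 for pluripotency genes, 3 and 1 for anterior neural genes, and 1 and 0 for genes of other lineages. Of all genes, 3.70% were nearest to a T/BraKO-only and 2.64% to a CdxKO-only region, so 1 of 20 (5%) lies near these shares. The T/BraKO-only shares of WNT feedback genes (20%) and anterior neural genes (15%) lay above them, on few genes. Most WNT feedback genes, 16 of 20, were nearest to a region called in all 6 libraries, against 12.2% of all genes.

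β-catenin was found at the deleted genes themselves in both mutants. The sources used here did not give the deleted stretches, so these peaks do not check the labels. At the T promoter (−238 bp) the CdxKO reads were 128, 91 and 121 and the T/BraKO reads 175, 75 and 226, which overlapped. At the Cdx1 promoter (−107 bp) they were 161, 100 and 138 against 338, 337 and 408, with 306, 330 and 370 in WT, so that CdxKO was below both. An intronic site of Cdx2 had 155, 124 and 130 reads in CdxKO and 193, 142 and 147 in T/BraKO. The T/BraKO-only site at −2253 bp of Cdx2 had 27, 43 and 48 reads in T/BraKO, 29, 14 and 26 in WT and no CdxKO peak. Just outside the rule, an intronic site of Cdx4 had 31, 39 and 32 reads in T/BraKO and weak CdxKO peaks of 9, 17 and 15 reads. A site of T at −18552 bp had 15, 15 and 30 reads in T/BraKO and a single CdxKO peak of 14 reads.

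SOX2, a factor of neural and pluripotent cells, and LEF1, a TCF/LEF partner of β-catenin, were mapped in the same mutants and had no part in choosing the regions. CdxKO-only β-catenin regions held a SOX2 peak among the 20000 best in 23.8, 16.7 and 29.3% of cases in CdxKO and in 4.96, 6.61 and 5.29% in T/BraKO. T/BraKO-only regions held one in 17.1, 19.0 and 16.3% in CdxKO and in 31.0, 35.2 and 48.2% in T/BraKO. Each mutant thus had more SOX2 at the regions where it had β-catenin, and the groups overlapped in neither set. The differences were 17.6 and −20.7 percentage points (two-sided exact permutation p = 0.1, adjusted p = 0.1 over 4 tests). At regions called in all 6 libraries SOX2 was found in 59.6 ± 1.09% of CdxKO and 56.7 ± 6.35% of T/BraKO cases (exact permutation p = 0.8).

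LEF1 followed at lower levels. CdxKO-only regions held a LEF1 peak in 15.9, 12.1 and 10.7% of cases in CdxKO and in 1.32, 1.82 and 1.82% in T/BraKO. T/BraKO-only regions held one in 2.77, 3.43 and 4.54% and in 6.42, 7.86 and 6.98%. Neither pair of groups overlapped, with differences of 11.2 and −3.51 percentage points (exact permutation p = 0.1, adjusted p = 0.1). In the full LEF1 lists the T/BraKO-only groups did overlap, at 36.2, 41.7 and 30.1% in CdxKO against 50.4, 53.0 and 34.1% in T/BraKO (exact permutation p = 0.3). At regions called in all 6 libraries LEF1 was found more often in CdxKO as well, in 43.7 ± 0.979% against 31.4 ± 4.35% (exact permutation p = 0.1). The part of this general difference in the first value was not tested.

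**Figure D3:**
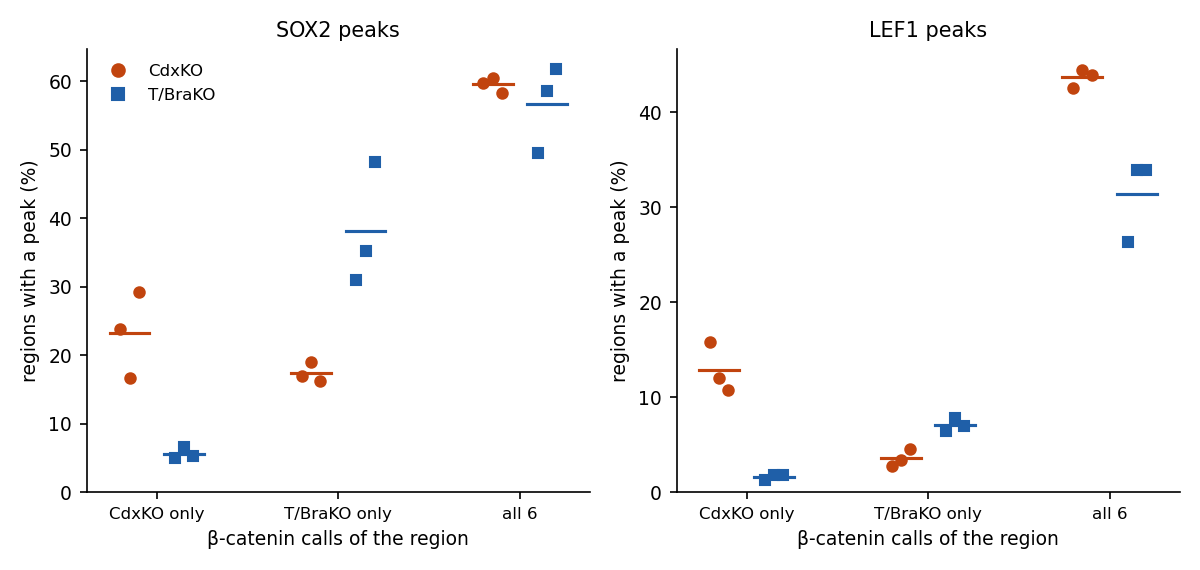
Percentage of CdxKO-only, T/BraKO-only and all-6 β-catenin regions that overlap a SOX2 (left) or LEF1 (right) peak among the 20000 best of each CdxKO (circles) or T/BraKO (squares) library; lines are means of 3 libraries. SOX2 is at 16.7 to 29.3% against 4.96 to 6.61% in CdxKO-only regions and the order turns in T/BraKO-only regions.

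At single sites SOX2 followed less evenly. At the Meis3 and Ncam1 sites all 3 T/BraKO and 0 CdxKO libraries had a SOX2 peak among the 20000 best. At the Hoxc4, Fgf8 and Mesp2 sites neither mutant had one. The farther Rspo3 site had one in all 3 libraries of both mutants.

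Strength was compared at the 6064 regions with a peak in all 6 full lists, as log2 of the authors' fold enrichment, centred per library and tested with limma. At an adjusted p under 0.05, 335 regions (5.52%) were higher in CdxKO and 114 (1.88%) in T/BraKO, and 1087 regions had an unadjusted p under 0.05. The split depended on scaling. Without centring, where the median log2 difference was −0.24, the counts were 273 and 235, and with quantile normalisation 322 and 150. A CDX motif lay in 46 of the 114 regions higher in T/BraKO (40.4%), in 24 of the 335 higher in CdxKO (7.16%) and in 9.05% of all regions tested. Requiring a peak in every list leaves out regions lost altogether in a library.

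Of the 29 tested regions nearest to Hox genes, 2 were higher in T/BraKO and 1 in CdxKO. Their median log2 difference was 0.139, so Hox regions with a peak in every list were not generally weaker in CdxKO. The 2 higher in T/BraKO lay in the Hoxb cluster. In an intron of Hoxb4 (chr11:96317418-96320513) the fold enrichment was 6.45, 5.16 and 7.31 in CdxKO and 38.2, 38.6 and 39.8 in T/BraKO, a log2 difference of −2.40 ± 0.396 (SE; limma adjusted p = 0.000109). In an intron of Hoxb9 it was 4.22, 5.12 and 3.58 against 22.0, 23.0 and 23.0 (−2.18 ± 0.401, adjusted p = 0.000436). The groups were far apart at both sites, which hold a CDX motif. At the Cdx1 promoter the fold enrichment was 62.1, 43.5 and 41.4 against 146.0, 139.1 and 147.1 (−1.34 ± 0.284, adjusted p = 0.00182). Sites of Gbx2, a homeobox gene of the hindbrain and caudal epiblast (−1.38, adjusted p = 0.0274), Msx1 (−1.47, adjusted p = 0.0303), Wnt5a (−1.28, adjusted p = 0.0433) and the WNT inhibitor gene Nkd1 (−1.50, adjusted p = 0.00886) were also higher in T/BraKO. So were 2 sites in introns of T2 upstream of T, at −25339 bp (−1.32, adjusted p = 0.0378) and −19842 bp (−1.41, adjusted p = 0.0260), while the T promoter differed by 0.02 ± 0.370 (adjusted p = 0.990). The Wnt5a site lay at −87038 bp, in an intron of Erc2. The region with the largest difference, 106096 bp from Bdh1, had 4.58, 5.60 and 6.63 in CdxKO and 89.6, 65.0 and 110.4 in T/BraKO (−3.72 ± 0.392, adjusted p = 8.36e-07). The next by adjusted p lay nearest to Zmiz1, Phf3, Fmn1 and Gtf3a, with log2 differences of −2.67, −2.77, −2.45 and −2.68.

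Single sites of streak and paraxial mesoderm genes were higher in CdxKO. The streak list had 3 regions higher in CdxKO and 3 higher in T/BraKO, the latter at Wnt5a and T. Of genes tested, 12% of the streak list and 9.52% of the paraxial mesoderm list had a region higher in CdxKO. The share of all genes tested was 8.05%. A site at −10515 bp of Mixl1, a homeobox gene of the primitive streak, had a fold enrichment of 37.6, 19.1 and 44.0 in CdxKO and 12.9, 4.40 and 8.11 in T/BraKO (2.27 ± 0.436, limma adjusted p = 0.000684). At −1337 bp of Hes7, an oscillating gene of the segmentation clock, it was 27.4, 14.5 and 12.4 against 10.3, 4.08 and 2.62 (2.06 ± 0.446, adjusted p = 0.00231). All CdxKO values were above all T/BraKO values at both sites. Sites of Fgf8 (1.62, adjusted p = 0.0285), the BMP and activin antagonist gene Fst (1.40, adjusted p = 0.0337) and Pdgfra, a receptor gene of paraxial mesoderm (1.57, adjusted p = 0.0328), were also higher in CdxKO. The groups overlapped at Fgf8, where the lowest CdxKO value was 12.9 and the highest T/BraKO value 13.2. They also overlapped at Pdgfra, at 7.66 and 9.05. The single Hox site on this side was at Hoxb1, the most anterior gene of its cluster (1.86 ± 0.455, adjusted p = 0.00739).

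By list, 0 of 21 posterior neural genes tested were nearest to a region higher in CdxKO and 2 to one higher in T/BraKO, against 8.05% and 2.82% of the 3824 genes tested. The counts were 1 and 2 of 15 for Hox genes, 2 and 0 of 21 for paraxial mesoderm genes, 3 and 2 of 25 for streak and mesendoderm genes, and 0 and 2 of 19 for WNT feedback genes. These shares lie near the background in several lists and rest on few genes. For genes of other lineages, which include markers of cells that the culture might hold, 2 of 5 tested were nearest to a region higher in CdxKO (Col1a2 and Cdh5) and 0 to one higher in T/BraKO.

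**Figure D4:**
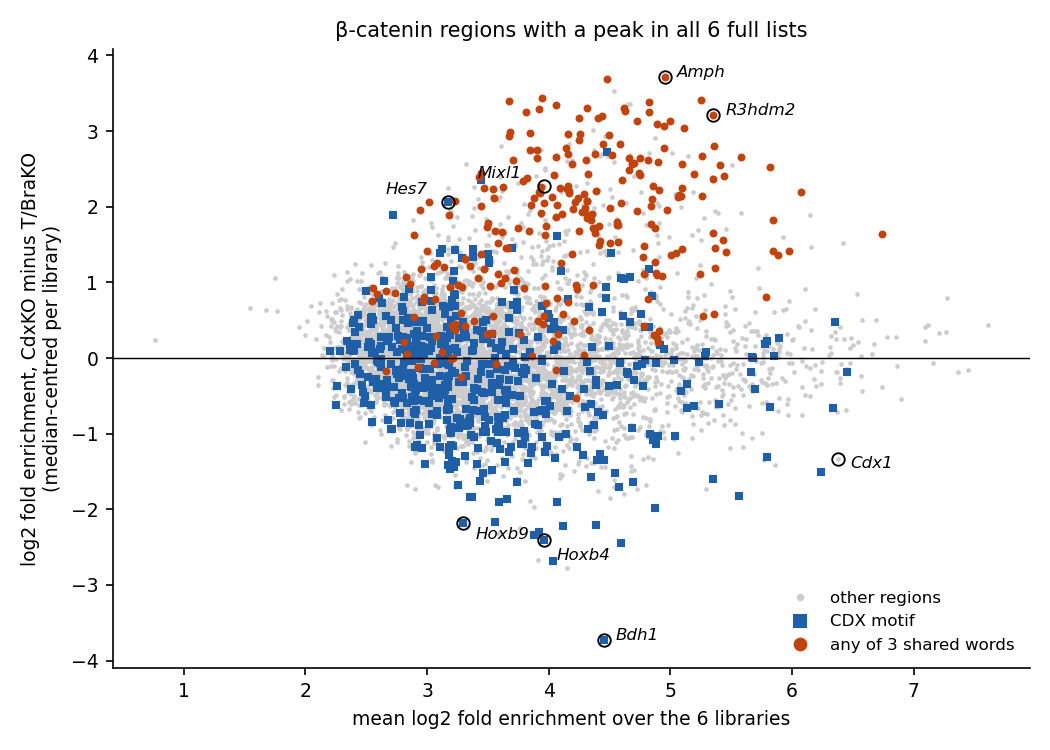
Difference in log2 fold enrichment between CdxKO and T/BraKO (positive when higher in CdxKO) against the mean log2 fold enrichment, for the 6064 regions with a peak in all 6 full lists; squares hold a CDX motif, circles any of 3 shared words, grey points neither, and rings mark named regions past an adjusted p of 0.05. Regions with a word lie mostly above 0, 242 of 250, and the lowest point, near Bdh1, holds a CDX motif.

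Many CdxKO-only regions lay in repeated sequence, which the CDX and gene lists did not show. The summit window was mostly soft-masked in the RefSeq genome, a mark of interspersed and simple repeats, in 203 of the 605 CdxKO-only regions (33.6%, 95% Wilson interval 29.9 to 37.4%). This was so in 82 of the 903 T/BraKO-only regions (9.08%, 7.38 to 11.1%), in 12.3% of regions called in all 6 and in 14.6% of all regions. The most frequent 12-base words of the CdxKO-only windows, each counted on regions without an earlier one, were CCCCTGGTGCTA, AAGGATTTCACA and ACCTGCCTGAGG. At least 1 of the 3 was found in 137 of the 605 CdxKO-only regions (22.6%), 0 of the 903 T/BraKO-only regions, 186 of the 3755 called in all 6 (4.95%) and 623 of all 96109 (0.648%). The words were picked for their frequency in CdxKO-only regions, so that share is a description. The family of repeats was not identified here.

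Word regions were most frequent at the top of their set. They made up 56.0% of the first 50 CdxKO-only regions, 25.0% of places 51 to 150, 25.6% of places 151 to 400 and 9.76% of the rest. The first 5 regions lay nearest to Gm10320, Cypt12, Brinp3, Cypt15 and Actl6a, and WT libraries called all of them 3 of 3 times. The region near Cypt12 had 188, 89 and 269 reads in CdxKO, 113, 176 and 156 in WT and no peak in T/BraKO. Near Cypt15 the CdxKO reads were 113, 106 and 200, with 1 T/BraKO peak of 10 reads. In both regions WT reads were far above those of T/BraKO.

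The difference was not limited to regions without a T/BraKO call. At the 186 word regions called in all 6 libraries the median reads were 99.5, 76 and 132 in CdxKO, 36, 29 and 41 in T/BraKO and 58, 97 and 94 in WT. No CdxKO or WT library reached down to the T/BraKO values. In the limma fit a word was found in 250 of the 6064 regions (4.12%) and in 0 of the 114 higher in T/BraKO. Of the 250, 242 had a positive log2 difference, with a median of 1.76, and 165 were among the 335 regions higher in CdxKO (49.3%). Those with the smallest adjusted p on that side lay nearest to Cobl, R3hdm2, Klhl32, Amph and Grik1, at log2 differences of 3.68, 3.22, 3.42, 3.71 and 3.53, and all but the Grik1 region held a word. Near R3hdm2 the fold enrichment was 92.6, 103.4 and 157.9 in CdxKO and 14.6, 14.8 and 14.3 in T/BraKO. Reads from repeats can align to several places. The sources used here did not state how such reads were treated, and any effect on these values was not tested.

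SOX2 and LEF1 libraries, which did not choose the words, showed the same order. Among the 20000 best SOX2 summits a word was found at 136, 114 and 159 in CdxKO and at 16, 27 and 45 in T/BraKO. For LEF1 the numbers were 237, 216 and 206 against 37, 56 and 39. The groups did not overlap, at 0.682 ± 0.113% against 0.147 ± 0.073% of summits for SOX2 (SD, n = 3; two-sided exact permutation p = 0.1, also for LEF1). The β-catenin libraries, from which the words came, had 526, 508 and 526 against 258, 225 and 292.

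**Figure D5:**
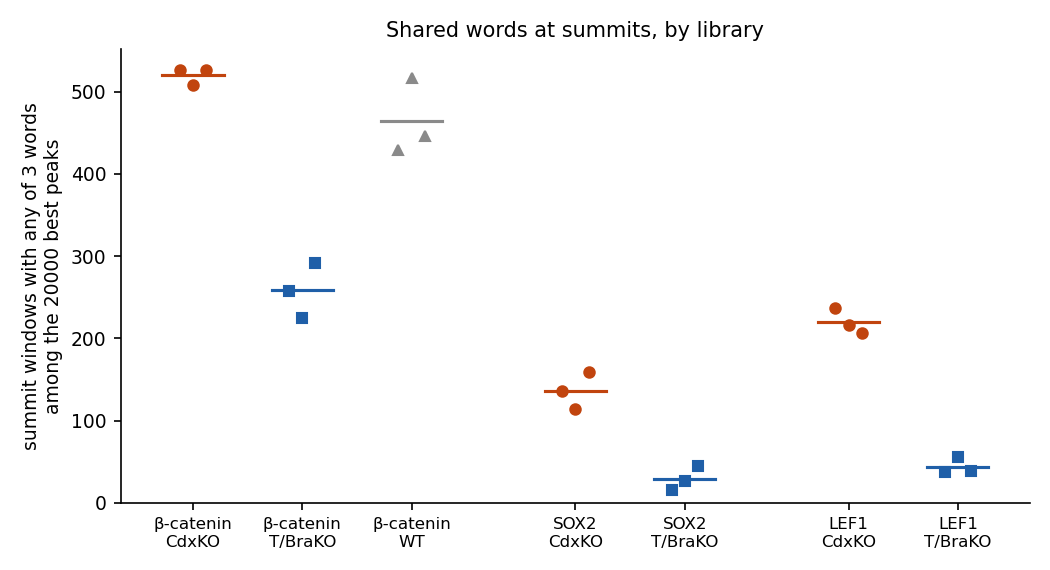
Number of the 20000 best summits with any of the 3 words within 100 bp, in each library (points) and as a mean of 3 libraries (lines), for β-catenin, SOX2 and LEF1. T/BraKO libraries lie below CdxKO libraries for all 3 factors, at 16 to 45 against 114 to 159 for SOX2.

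The comparison was therefore repeated without regions whose summit window was mostly soft-masked, an alternative chosen after seeing the data. CdxKO-only regions then numbered 402 and T/BraKO-only regions 821. The T-box motif was found in 26 of the 402 (6.47%) and in 1 of the 203 masked regions. The CDX motif was found in 320 of the 821 (39.0%), close to its share in all T/BraKO-only regions. SOX2 peaks lay at 21.8% of unmasked CdxKO-only regions in CdxKO and 5.89% in T/BraKO, and LEF1 peaks at 11.1% and 2.07% (exact permutation p = 0.1 for both). In the limma fit 142 regions higher in CdxKO and 107 higher in T/BraKO were unmasked. No region of the 4 posterior neural, Hox, paraxial mesoderm and streak lists named above held a word or was mostly masked.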

How the data were processed

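β-catenin ChIP–seq was compared between 3 CdxKO and 3 T/BraKO libraries, with 3 WT libraries and 12 SOX2 and LEF1 libraries of the mutants read beside them; the 12 input samples were not analysed. Per the paper, the authors trimmed 76-bp single-end reads with Trim Galore, aligned them to mm10 with BWA in the nf-core pipeline and called narrow peaks per library with MACS at its default q. The sources used here did not state which input was the control of which library or how reads with several alignments were treated. Fold enrichment over MACS's local background at the summit is the deposited ratio. The deposited −log10 p and −log10 q belong to the same summit, and the deposited summit position centred the windows. The deposited score was not used.

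Peaks were ranked by −log10 q and the 20000 best of the 9 lists were merged at an overlap of 1 bp. Reads at a summit were recovered from fold and −log10 p under MACS's Poisson formula, and came out whole, to 0.02, in 100% of peaks. They are not scaled for depth, and depth implied from them assumes that the shortest peak equals the fragment length. The RefSeq sequence of GRCm38, the build of mm10, gave motifs and soft-masking. The GENCODE basic annotation of the same build gave the genes and the nearest protein-coding start site. Group values were compared with exact permutation tests, which reach 0.1 at the lowest. Fold enrichment was tested with limma 3.58.1 (R 4.3.3) on median-centred log2 values, with Benjamini-Hochberg adjustment over all regions, after a test on simulated data; a region took the highest fold of its peaks. Lists were described by counts.

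The regions, gene lists and comparisons were chosen with earlier results of these data known. Named were the deleted genes, genes of the 4 main lists at a region called in one mutant only (1 is not reported here), the 5 best-ranked such regions of each mutant and the 5 regions with the lowest limma adjusted p in each direction. Other genes with a limma call were named because they belong to a list, after their values were seen. The shared words and the comparison without masked windows were chosen after seeing the data.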

Additional observations from a re-analysis of the deposited data

How the results depend on the processing

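Of 214 values under alternatives, 169 kept their direction or, for counts, stayed within 1.5 times the first count, 39 counts moved further and 6 values turned. Keeping direction did not mean keeping size, as the Jaccard excess ranged from 0.0060 (full lists) to 0.116 (5000 best). Since no exact test could pass 0.05, this says little of the stability of their p-values. With the 5000 best peaks T/BraKO-only regions fell to 354, and without masked windows CdxKO-only regions numbered 402. Leaving out 1 library gave 681 to 1141 CdxKO-only and 1124 to 1978 T/BraKO-only regions. Fewer libraries then have to agree, so counts cannot fall, whichever library is left out. They were highest without CdxKO replicate 2 and without T/BraKO replicate 2, and why was not tested. Of the first counts, 371 were also called by the full lists for CdxKO-only (61.3%) and 406 for T/BraKO-only (45.0%).

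Differences in motif share turned for SOX with all peaks of −log10 q of at least 10 (0.0124 points) and for TCF/LEF with the 5000 best (2.94) and with that q (2.97). The log10 number of peaks turned with that q (−0.123, exact permutation p = 0.1) and ranged from −0.0586 to 0.215 without 1 library, turning without CdxKO replicate 3 (−0.0578) or T/BraKO replicate 3 (−0.0586). In limma, regions with a peak in at least 3 of 6 lists gave 809 higher in CdxKO and 348 in T/BraKO, no centring 235 in T/BraKO, and unmasked windows 142 in CdxKO. Leaving out 1 library gave 234 to 335 and 54 to 116, with 69 without CdxKO replicate 1, 54 without T/BraKO replicate 1 and 68 without T/BraKO replicate 3. The causes were not tested.

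Genes counted within 50000 bp of the start site fell to 6 for posterior neural and 2 for paraxial mesoderm (both T/BraKO-only), and to 0 for WNT feedback, pluripotency and anterior neural (CdxKO-only) and for pluripotency (T/BraKO-only). Under this rule 1.44% of all genes had a CdxKO-only and 2.11% a T/BraKO-only region. By gene body extended by 10000 bp, where a region counts for each neighbouring gene and the shares of all genes were 1.67% and 2.64%, CdxKO-only counts were 3 for paraxial mesoderm, 2 for streak, 0 for WNT feedback and 0 for pluripotency. T/BraKO-only counts were 15 for Hox, 3 for paraxial mesoderm, 3 for streak, 2 for WNT feedback, 0 for pluripotency, 1 for anterior neural and 0 for other lineages. Full lists gave CdxKO-only counts of 3 for posterior neural, 1 for paraxial mesoderm, 0 for anterior neural and 1 for other lineages, and T/BraKO-only counts of 4 for pluripotency and 1 for anterior neural.

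Same-numbered libraries correlated at 0.0080, 0.155 and 0.256 in their deviations from the group means. Libraries of different numbers correlated at −0.236 to 0.101, below 2 of these 3 values. Whether the numbers pair the samples was not settled by this, and the main tests left pairing out. With a replicate block, limma gave 424 regions higher in CdxKO and 206 in T/BraKO, and 11 of 12 results with a block kept their direction or, for counts, stayed within 1.5 times.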

Other observations

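Regions on the X chromosome made up 5.29% of CdxKO-only regions, 2.77% of T/BraKO-only regions and 2.98% of those called in all 6 libraries, against 1.32% of all regions. Among regions that were not mostly soft-masked the shares were 3.48%, 2.19%, 2.64% and 1.17%.

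Recurring 12-base words were scarcer in the T/BraKO-only set. The most frequent, CAAAGCAAGCTC, was found in 13 of the 903 regions, in 19 of those called in all 6 and in 0 CdxKO-only regions. The word AAGGTCATAAAA, which contains a CDX motif, was found in 10 T/BraKO-only regions, 0 CdxKO-only regions and 0 of those called in all 6.

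A site 28941 bp from Dppa3, a gene of naive pluripotent cells, had a fold enrichment of 4.00, 11.2 and 4.83 in CdxKO, 17.4, 21.8 and 17.4 in T/BraKO and 35.4, 35.5 and 25.3 in WT (log2 difference −1.41 ± 0.439, limma adjusted p = 0.0468). Its summit window was mostly soft-masked. A site 45239 bp from Col1a2, a collagen gene, had 50.2, 24.0 and 45.5 in CdxKO and 28.0, 13.7 and 9.21 in T/BraKO, where the groups overlapped (1.55 ± 0.412, limma adjusted p = 0.0148). The site of Cdh5, an endothelial cadherin gene, at −13578 bp lay in a masked window (1.83 ± 0.453, limma adjusted p = 0.00832).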
